A study of Mus musculus with 9 samples.

Results

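Ccr2, Ccr4, Ccr6, Ccr7, Ccr8, Ccr9, Cxcr3, Cxcr4 and Cxcr5 encode 9 chemokine receptors, and their transcripts were compared between conventional and induced regulatory mouse T cells. The genes were taken by symbol from the annotation of the array, which named 16 probe sets for them among the 45037 tested, so the 9 genes stand among 18193 named genes. For each gene the probe set with the highest mean over all arrays was used, and the other probe sets of Ccr2 and Ccr9, the only receptors here with several, served as a check. Expression was measured on 9 Affymetrix arrays, 3 for each of the groups Tconv, purTGFβ_iTreg and pltTGFβ_iTreg, and is given as log2 of the intensity summarised by Robust Multichip Analysis (RMA). Tconv stands for conventional T cells and iTreg for induced regulatory T cells. All groups had the C57BL/6 (B6) background. The iTreg protocol started from spleen CD4+ T cells of Foxp3EGFP mice, sorted as negative for the green reporter of Foxp3, the transcription factor of regulatory T cells. They were cultured for 72 hours with plate-coated anti-CD3 at 2.5 µg/ml, 100 U/ml of IL2 and anti-CD28 at 1 µg/ml. In purTGFβ_iTreg the cytokine TGFβ1 was the purified protein at 5 ng/ml, and in pltTGFβ_iTreg it came from freeze-thaw lysates of wild-type C57BL/6 platelets, with the dose not given in the sources used here. How Tconv cells were treated is unsettled, because the treatment description shared by all samples gives them TGFβ1 too. A sort of the cultured cells by reporter before RNA extraction is not mentioned in the sources used here. The arrays are called biological replicates, but nothing says whether they came from separate animals or cultures, and p-values measure the spread between these arrays.

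Chemokine receptors are G-protein-coupled receptors of the cell surface that guide T cells along gradients of small secreted proteins, the chemokines. Ligand binding releases the beta and gamma subunits of inhibitory G proteins, which drive cell movement through phosphoinositide 3-kinase and Rac, and kinases, arrestins and RGS proteins then end the signal. T cells change their set of receptors as they are activated: naive cells use CCR7 to enter lymph nodes, while effector and regulatory subsets take up receptors that lead them to inflamed skin, gut or B cell follicles.

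T cell markers were read on all arrays, and markers of other cells ranged from well above the array medians to below them. The mean of 7 T cell markers (Cd3d, Cd3e, Cd3g, Cd4, Cd5, Cd28, Thy1) read 10.19 to 10.65 on every array. Of these 7, Cd4 and Cd5 fell in both iTreg groups and Cd28 rose in pltTGFβ_iTreg. In purTGFβ_iTreg Cd28 differed by 0.46, short of the fold cutoff used below. Its other probe set was called higher in both, by 1.07 in purTGFβ_iTreg and 1.45 in pltTGFβ_iTreg. Among markers of other cells, Cst3 read 9.38 in Tconv and 8.72 in both iTreg groups as means. Eomes read 7.11, 5.80 and 7.19 in Tconv, purTGFβ_iTreg and pltTGFβ_iTreg, and Cd8b1 and Itga2b read 6.75 each in Tconv. These were among the brightest of the markers read for those cells. Some others lay at or below the array medians in Tconv, such as Cd8a and Lyz2 (4.51 each), Ncr1 (3.86), Cd14 (3.49) and Pf4 (3.32). Foxp3, the defining transcript of regulatory T cells, was not called higher in either group labelled iTreg: group means were 3.79 ± 0.12 (SD, n = 3) in Tconv, 3.77 ± 0.08 in purTGFβ_iTreg and 3.86 ± 0.04 in pltTGFβ_iTreg, on 1 probe set. Of the other regulatory T cell markers, Il2ra, Ctla4, Ikzf2 and Ikzf4 rose in both iTreg groups and Tnfrsf18 fell in both. The table held no detection calls, and array medians lay between 4.46 and 4.56, so whether readings of about 3 exceeded background is unknown. The Tconv arrays also differed in sex-linked transcripts: Xist read 10.63 to 10.94 in Tconv and 3.37 to 3.99 in iTreg, and Y-linked Eif2s3y 2.59 to 2.82 and 8.82 to 9.18. The sex of the animals therefore cannot be told apart from the Tconv comparisons, which also share the same 3 Tconv arrays, whereas the comparison of the iTreg groups carries no such split. In RNA from whole cultures, fewer cells of a type and less RNA per cell cannot be told apart.

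**Figure D1:**
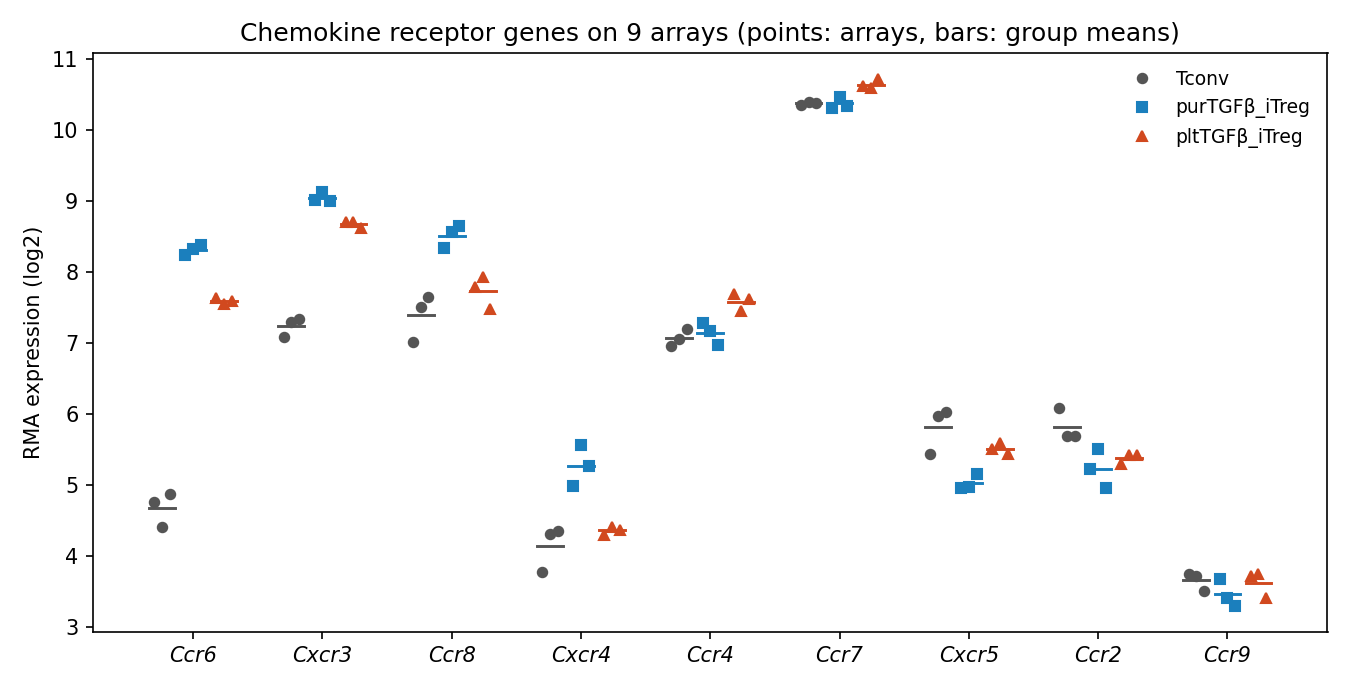
RMA expression (log2, vertical axis) of the 9 receptor genes on each of the 9 arrays, with points for arrays and bars for group means. Ccr6 and Cxcr3 lie apart between Tconv and both iTreg groups, Ccr8 and Cxcr4 lie highest in purTGFβ_iTreg, and Ccr9 overlaps in all groups; the height of different genes is not comparable, because each probe set has its own brightness.

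Against Tconv, purTGFβ_iTreg cells had more Ccr6, Cxcr3, Cxcr4 and Ccr8 transcript and less Cxcr5 and Ccr2, while Ccr4, Ccr7 and Ccr9 were not called. A gene was called when the limma fit over all 9 arrays gave an adjusted p under 0.1 and the log2 difference exceeded 0.5 in either direction, close to the 1.4-fold and 10% false discovery rate of the authors. By this rule 6 of the 9 receptors were called, 4 higher and 2 lower, where 29.3% of all genes were called, 14.5% higher and 14.9% lower. In pltTGFβ_iTreg 3 of the 9 rose, Ccr6, Cxcr3 and Ccr4, and 0 fell, where 28.5% of all genes were called, 13.9% higher and 14.7% lower, so this share of receptors was near that of the genes at large. At an adjusted p under 0.1 with no fold cutoff the same 6 passed in purTGFβ_iTreg, beside 63.4% of all genes (20.8% higher, 42.6% lower). In pltTGFβ_iTreg 5 passed, 4 higher with Ccr7 added and 1 lower, Ccr2, beside 60.4% of all genes (20.2% higher, 40.3% lower). The median log2 difference of the 9 was 0.08 in purTGFβ_iTreg and 0.27 in pltTGFβ_iTreg, beside -0.17 and -0.16 over all genes. The arrays of the groups compared did not overlap for 6 receptors in purTGFβ_iTreg (62.7% of all genes) and for 5 in pltTGFβ_iTreg (59.0%).

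The largest change belonged to Ccr6, the receptor for CCL20, which marks Th17 cells and also directs regulatory T cells to mucosal and inflamed sites. Ccr6 read 4.76, 4.41 and 4.87 on the Tconv arrays, 8.24, 8.32 and 8.38 in purTGFβ_iTreg and 7.63, 7.54 and 7.59 in pltTGFβ_iTreg. Tconv was low on every array and no groups overlapped. Ccr6 rose 12.5-fold in purTGFβ_iTreg (log2 difference 3.64 ± 0.11, SE, n = 3 against 3, adjusted p = 6.74e-10, limma). In pltTGFβ_iTreg it rose 7.52-fold (2.91 ± 0.11, adjusted p = 6.47e-09). These rises ranked 36 and 42 among the log2 differences of the 18193 genes.

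Cxcr3, the receptor of Th1 and effector T cells for the interferon-induced chemokines CXCL9 and CXCL10, also rose in both. It read 7.08, 7.29 and 7.33 in Tconv, 9.01, 9.12 and 9.0 in purTGFβ_iTreg and 8.70, 8.70 and 8.62 in pltTGFβ_iTreg. All 3 groups were apart, with purTGFβ_iTreg highest. The rise was 3.50-fold with purified TGFβ1 (1.81 ± 0.09, adjusted p = 2.17e-08) and 2.71-fold with platelet lysate (1.44 ± 0.09, adjusted p = 1.47e-07). Cxcr3 lies on the X chromosome, and the groups differed in sex-linked transcripts. Of 617 X-linked genes 19.8% were called higher in purTGFβ_iTreg and 19.4% in pltTGFβ_iTreg, beside 14.3% and 13.7% of genes on other chromosomes, and the part of sex in the Cxcr3 result was not tested.

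CCR8 and CCR4 are receptors of skin-homing, Th2 and regulatory T cells, CCR8 for CCL1 and CCR4 for CCL17 and CCL22. Ccr8 read 7.01, 7.51 and 7.65 in Tconv, 8.34, 8.56 and 8.65 in purTGFβ_iTreg and 7.79, 7.92 and 7.47 in pltTGFβ_iTreg. The purTGFβ_iTreg arrays stood above all others, and the pltTGFβ_iTreg arrays overlapped Tconv. Ccr8 rose 2.18-fold with purified TGFβ1 (1.12 ± 0.17, adjusted p = 1.72e-04), whereas the log2 difference with platelet lysate was 0.33 (95% interval -0.03 to 0.70, adjusted p = 0.124).

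Ccr4 was highest in pltTGFβ_iTreg. It read 6.95, 7.05 and 7.20 in Tconv, 7.28, 7.17 and 6.97 in purTGFβ_iTreg and 7.69, 7.45 and 7.62 in pltTGFβ_iTreg. Only the pltTGFβ_iTreg arrays stood clear of the others. Ccr4 rose 1.43-fold there (0.52 ± 0.11, adjusted p = 0.0019), and the difference between purTGFβ_iTreg and Tconv was 0.08 (95% interval -0.16 to 0.31). The rise lay at the fold cutoff: it was 0.31 after quantile normalization, 0.46 without Tconv replicate 1 and 0.47 without pltTGFβ_iTreg replicate 1, each below 0.5.

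Cxcr4, Ccr7 and Cxcr5 place lymphocytes within lymphoid organs. CXCR4 binds CXCL12 of bone marrow and lymphoid stroma. Cxcr4 read 3.77, 4.31 and 4.35 in Tconv, 4.99, 5.56 and 5.26 in purTGFβ_iTreg and 4.29, 4.4 and 4.37 in pltTGFβ_iTreg. As for Ccr8, purTGFβ_iTreg stood above both other groups, which overlapped. Cxcr4 rose 2.19-fold with purified TGFβ1 (1.13 ± 0.16, adjusted p = 1.48e-04), and the difference with platelet lysate was 0.21 (95% interval -0.15 to 0.57). Its Tconv and pltTGFβ_iTreg readings lay at or below the array medians.

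Ccr7 read 10.35, 10.39 and 10.37 in Tconv, 10.31, 10.46 and 10.33 in purTGFβ_iTreg and 10.61, 10.59 and 10.71 in pltTGFβ_iTreg. This was the narrowest range of the 9 receptors, 0.39 over all arrays, with only the pltTGFβ_iTreg arrays apart. The difference from Tconv was 0.00 (95% interval -0.17 to 0.17) with purified TGFβ1 and 0.27 (0.09 to 0.44, adjusted p = 0.0159) with platelet lysate, short of the fold cutoff.

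Cxcr5, the receptor of follicular helper T cells and B cells for CXCL13, read 5.43, 5.97 and 6.03 in Tconv, 4.96, 4.97 and 5.15 in purTGFβ_iTreg and 5.5, 5.59 and 5.43 in pltTGFβ_iTreg. The purTGFβ_iTreg arrays were the lowest, and Tconv replicate 1 lay within the pltTGFβ_iTreg range. Cxcr5 was 1.72-fold lower with purified TGFβ1 (-0.78 ± 0.14, adjusted p = 7.05e-04), and the difference with platelet lysate was -0.30 (95% interval -0.61 to 0.01, adjusted p = 0.101). B cell markers were also lower in both iTreg groups on average. Their median log2 difference was -0.28 in each, beside -0.17 and -0.16 over all genes. The mean of 6 (Cd79a, Cd79b, Ms4a1, Pax5, Blnk, Cr2) was 4.13 to 4.18 in Tconv, 3.65 to 3.87 in purTGFβ_iTreg and 3.59 to 3.81 in pltTGFβ_iTreg. The iTreg groups overlapped in this mean. Of these 6, 1 was called in each Tconv comparison, Cd79b, which read 6.02 ± 0.23 (SD) in Tconv and 4.56 ± 0.09 and 4.37 ± 0.29 in the iTreg groups, while Ms4a1 differed by 0.13 and 0.09, not called. Their part in the Cxcr5 result was not tested.

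Ccr2, the receptor for CCL2 on monocytes and memory T cells, read 6.08, 5.69 and 5.69 in Tconv, 5.22, 5.51 and 4.96 in purTGFβ_iTreg and 5.30, 5.42 and 5.42 in pltTGFβ_iTreg. Tconv was the highest and the iTreg groups overlapped each other. Ccr2 was 1.5-fold lower with purified TGFβ1 (-0.59 ± 0.14, adjusted p = 0.00537), and its difference with platelet lysate was -0.44 (95% interval -0.75 to -0.13). The purTGFβ_iTreg call was lost without Tconv replicate 1 (-0.46), without purTGFβ_iTreg replicate 3 (-0.45) and with the mean of its 4 probe sets (-0.29). The other 3 probe sets of Ccr2 read 2.47 to 3.16 on all arrays and none was called. Myeloid or dendritic markers (7 genes) had array means of 4.78 to 4.97 in Tconv, 4.48 to 4.6 in purTGFβ_iTreg and 4.53 to 4.6 in pltTGFβ_iTreg. Of the 7, 1 (14.3%), Cst3, was called lower in each, beside 29.3% and 28.5% of all genes called. Their median log2 difference was -0.38 and -0.37, beside -0.17 and -0.16 over all genes. Their part in the Ccr2 result was not tested.

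Ccr9, the gut-homing receptor for CCL25, was not called in any comparison. It read 3.74, 3.71 and 3.51 in Tconv, 3.67, 3.40 and 3.30 in purTGFβ_iTreg and 3.71, 3.75 and 3.40 in pltTGFβ_iTreg, with all groups overlapping. Its 5 probe sets all lay between 2.59 and 3.75 on every array, so no Ccr9 signal clear of the lowest readings was seen.

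**Figure D2:**
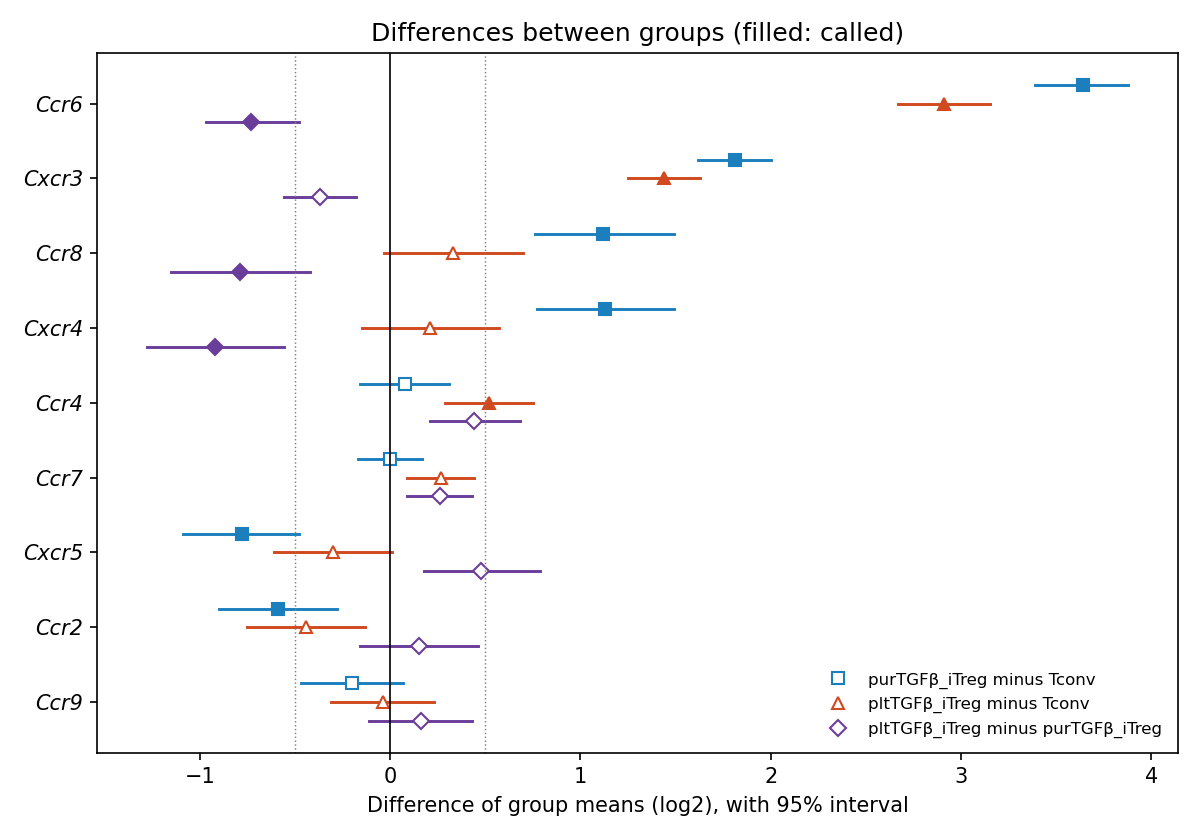
Differences of group means (log2, horizontal axis) for the 9 receptor genes with 95% intervals from the limma fit, filled where called and with dotted lines at the fold cutoff of 0.5 in each direction. Ccr6 has the largest rises, and for Ccr6, Ccr8 and Cxcr4 the iTreg groups themselves differ, with pltTGFβ_iTreg lower.

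The direct comparison of the iTreg groups set platelet lysate against purified TGFβ1. The source of TGFβ1, its dose and the other contents of the lysate cannot be told apart in it. Ccr6, Ccr8 and Cxcr4 were lower with platelet lysate than with purified TGFβ1, and 0 receptors were called higher. These 3 of 9 stand beside 4.11% of all genes called, 2.57% lower and 1.54% higher. Without the fold cutoff 7 of the 9 passed an adjusted p of 0.1, beside 9.72% of all genes: Cxcr3 joined the lower set, making 4 (5.49% of all genes), and 3 were higher, Ccr4, Ccr7 and Cxcr5 (4.23%). For the same 7 the arrays of the iTreg groups did not overlap (28.2% of all genes). The receptors were proposed with results of these arrays known, so this excess over the background is a description.

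Cxcr4 differed most, with pltTGFβ_iTreg 1.89-fold lower (-0.92 ± 0.16, adjusted p = 0.00603). Ccr8 was 1.73-fold lower (-0.79 ± 0.17, adjusted p = 0.016) and Ccr6 1.66-fold lower (-0.73 ± 0.11, adjusted p = 0.00219). They ranked 127, 181 and 214 among the 18193 genes ordered from the most negative difference. For Ccr8 and Cxcr4 the pltTGFβ_iTreg arrays overlapped those of Tconv, while for Ccr6 they lay far above. The Ccr8 call was lost when the gene variances were not moderated by limma (adjusted p = 0.123, where the 14 alternatives ranged from 0.00383 to 0.123). Cxcr3 was lower by a smaller amount (-0.37 ± 0.09, adjusted p = 0.0303).

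The other direction was held by Cxcr5, Ccr4 and Ccr7, none of which reached the fold cutoff. Cxcr5 differed by 0.48 ± 0.14 (adjusted p = 0.0785), Ccr4 by 0.44 ± 0.11 (adjusted p = 0.0323) and Ccr7 by 0.26 ± 0.08 (adjusted p = 0.0845). Ccr4 crossed the cutoff at 0.51 without purTGFβ_iTreg replicate 1 and, equally, without pltTGFβ_iTreg replicate 2. Ccr2 and Ccr9 differed by 0.15 (95% interval -0.16 to 0.46) and 0.16 (-0.11 to 0.43). In order of level, Ccr6, Cxcr3, Ccr8 and Cxcr4 ran from Tconv through pltTGFβ_iTreg to purTGFβ_iTreg, and Cxcr5, Ccr2 and Ccr9 ran the reverse way. Ccr4 and Ccr7 ran from Tconv through purTGFβ_iTreg to pltTGFβ_iTreg. Neighbours in that order that were not called apart were Tconv and pltTGFβ_iTreg for Ccr8, Cxcr4, Cxcr5 and Ccr2, the iTreg groups for Cxcr3, Cxcr5, Ccr2 and Ccr4, and Tconv and purTGFβ_iTreg for Ccr4. No groups were called apart for Ccr7 and Ccr9.

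Ccl20 and Ccl1 were the ligand genes called in all 3 comparisons. Of 14 measured ligand genes, 2 rose and 2 fell in purTGFβ_iTreg, which is 28.6% called beside 29.3% of all genes. In pltTGFβ_iTreg 2 rose and 0 fell by limma (14.3% beside 28.5%). Between the iTreg groups 2 were higher with platelet lysate and 0 lower (14.3% beside 4.11%). The rises in each were Ccl20 and Ccl1, the ligands of CCR6 and CCR8. Ccl20 read 4.47, 5.22 and 4.38 in Tconv, 8.25, 8.25 and 8.33 in purTGFβ_iTreg and 9.05, 9.10 and 9.06 in pltTGFβ_iTreg. Ccl1 read 6.25, 5.17 and 5.98 in Tconv, 8.20, 8.20 and 8.28 in purTGFβ_iTreg and 9.41, 9.36 and 9.25 in pltTGFβ_iTreg. Both ligands were thus highest with platelet lysate on every array. Between the iTreg groups Ccl20 was 1.73-fold higher (0.79 ± 0.17, adjusted p = 0.02) and Ccl1 2.16-fold higher (1.11 ± 0.21, adjusted p = 0.00797) with platelet lysate, while the receptor of each was lower. Of the CCR4 ligands, Ccl17 fell in purTGFβ_iTreg (-0.66 ± 0.13, adjusted p = 0.00181) and Ccl22 was not called in any comparison. The CXCR4 ligand Cxcl12 fell there too (-0.58 ± 0.11), on its brightest probe set only, as its other 2 probe sets changed by -0.06 and -0.07. Even that probe set read only 3.15 to 3.95 over all arrays, below the array medians. Without the dimmest 40% of probe sets, 1 ligand was called lower in purTGFβ_iTreg. Cxcl9, Cxcl10 and Cxcl11 for CXCR3, Ccl25 for CCR9, Cxcl13 for CXCR5 and Ccl2, Ccl7 and Ccl12 for CCR2 and Ccl8, another ligand of mouse CCR8, were not called in any comparison on their main probe sets. Second probe sets differed for a pair of them: that of Cxcl13 was called lower in purTGFβ_iTreg (-0.63, adjusted p = 7.60e-05) and in pltTGFβ_iTreg (-0.53, adjusted p = 3.16e-04), and that of Ccl25 was called higher in pltTGFβ_iTreg (0.51, adjusted p = 0.00105).

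**Figure D3:**
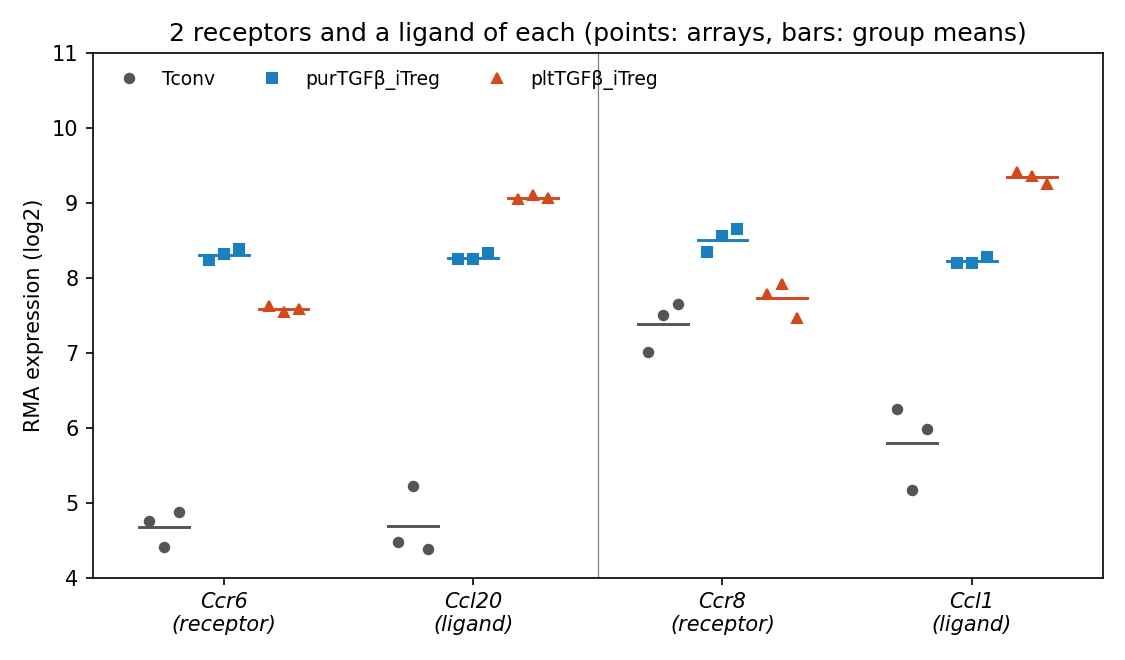
RMA expression (log2, vertical axis) of Ccr6 with its ligand Ccl20 and of Ccr8 with its ligand Ccl1, with points for arrays and bars for group means. Both receptors lie higher in purTGFβ_iTreg than in pltTGFβ_iTreg and both ligands lie lower, with no overlap between the iTreg groups.

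Of 12 other chemokine receptors, 1 was higher and 1 lower in purTGFβ_iTreg, 16.7% called beside 29.3% of all genes. In pltTGFβ_iTreg 2 were higher and 3 lower, 41.7% beside 28.5%, and between the iTreg groups 1 was lower, 8.33% beside 4.11%. The gene lower between the iTreg groups was Cx3cr1, the receptor for fractalkine, whose groups had the same order as those of Cxcr4 and Ccr8. It read 4.27 to 4.35 in Tconv, 5.59 to 6.07 in purTGFβ_iTreg and 4.41 to 4.63 in pltTGFβ_iTreg, with a difference of -1.39 ± 0.12 (adjusted p = 3.08e-05) between the iTreg groups. The decoy-like Ccrl2 fell in both iTreg groups (-0.75 and -0.66). In pltTGFβ_iTreg Ccr10 and Ackr1 also fell (-0.55 and -0.52) and Cxcr6 and Ackr4 rose (0.54 each). The other Cxcr6 probe set gave 0.06, and the other probe sets of Ackr4 gave -0.16, not called, and 0.70, called. Ackr4 fell outside the naming rule and was added after its value was seen.

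Downstream of the receptors, 6 of 22 signalling and desensitisation genes rose and 2 fell in purTGFβ_iTreg, and 6 rose and 3 fell in pltTGFβ_iTreg. These are 36.4% and 40.9% called, beside 29.3% and 28.5% of all genes. Rgs1, which shortens chemokine receptor signals, rose by 2.69 ± 0.08 and 2.72 ± 0.08 on the log2 scale, and Rgs16 by 1.33 and 1.45. Gnai3, an inhibitory G protein subunit, rose by 1.67 and 1.81. Between the iTreg groups 18.2% were called, beside 4.11% of all genes. With platelet lysate 1 was higher, Rgs2 (0.73 ± 0.13), and 3 were lower: Pik3cg, the phosphoinositide 3-kinase that the G protein subunits activate (-1.07 ± 0.11, adjusted p = 1.44e-04), the G protein gamma subunit Gng2 (-0.61 ± 0.09) and the arrestin Arrb1 (-0.54 ± 0.11). Pik3cg and Gng2 thus had the same order of groups as Ccr6, Cxcr3, Ccr8 and Cxcr4. Pik3cg read 5.63 ± 0.19 (SD) in Tconv, 7.74 ± 0.11 in purTGFβ_iTreg and 6.67 ± 0.12 in pltTGFβ_iTreg. The other genes of this list that rose, Rgs1, Rgs16, Gnai3 and Rgs2, had their highest mean in pltTGFβ_iTreg. Of those, only Rgs2 was called apart between the iTreg groups. The share of all genes with either order was not counted.

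Among 11 transcription factors known to act on receptor genes, 6 rose and 2 fell in purTGFβ_iTreg, 5 rose and 2 fell in pltTGFβ_iTreg, and 4 were lower with platelet lysate than with purified TGFβ1. These are 72.7%, 63.6% and 36.4% called, beside 29.3%, 28.5% and 4.11% of all genes. Maf rose by 6.48 ± 0.09 and 5.12 ± 0.09, but its other 5 probe sets gave 0.47 to 4.21 and 0.06 to 2.54. Klf2, a factor of T cell trafficking, rose by 3.03 ± 0.10 and 1.66 ± 0.10, and Runx1 by 2.03 and 1.81, though 3 of its other 5 probe sets were not called. Gata3, the Th2 factor, fell in both (-2.56 and -2.14). Tbx21, the Th1 factor known to act on Cxcr3, fell in both (-1.15 and -0.80), and was named after its values were seen. The 4 lower between the iTreg groups were Maf (-1.36), Klf2 (-1.37), Bcl6 (-0.64, but -0.17 and not called on its other probe set) and Rora (-0.70, adjusted p = 0.0921, with 2 of its other 8 probe sets called lower).

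Some counts in these 4 lists moved with single arrays. In purTGFβ_iTreg, ligands lower went from 2 to 1 without Tconv replicate 1, signalling genes lower from 2 to 1 without Tconv replicate 3 or purTGFβ_iTreg replicate 1, and other receptors lower from 1 to 2 without Tconv replicate 3 or purTGFβ_iTreg replicate 2. In pltTGFβ_iTreg, other receptors higher went from 2 to 1 without Tconv replicate 1 or pltTGFβ_iTreg replicate 1 or 3, and other receptors lower from 3 to 1 without pltTGFβ_iTreg replicate 3. Signalling genes lower went from 3 to 1 there without Tconv replicate 3, and ligands lower from 0 to 1 without Tconv replicate 1 or 3 or pltTGFβ_iTreg replicate 2.

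**Figure D4:**
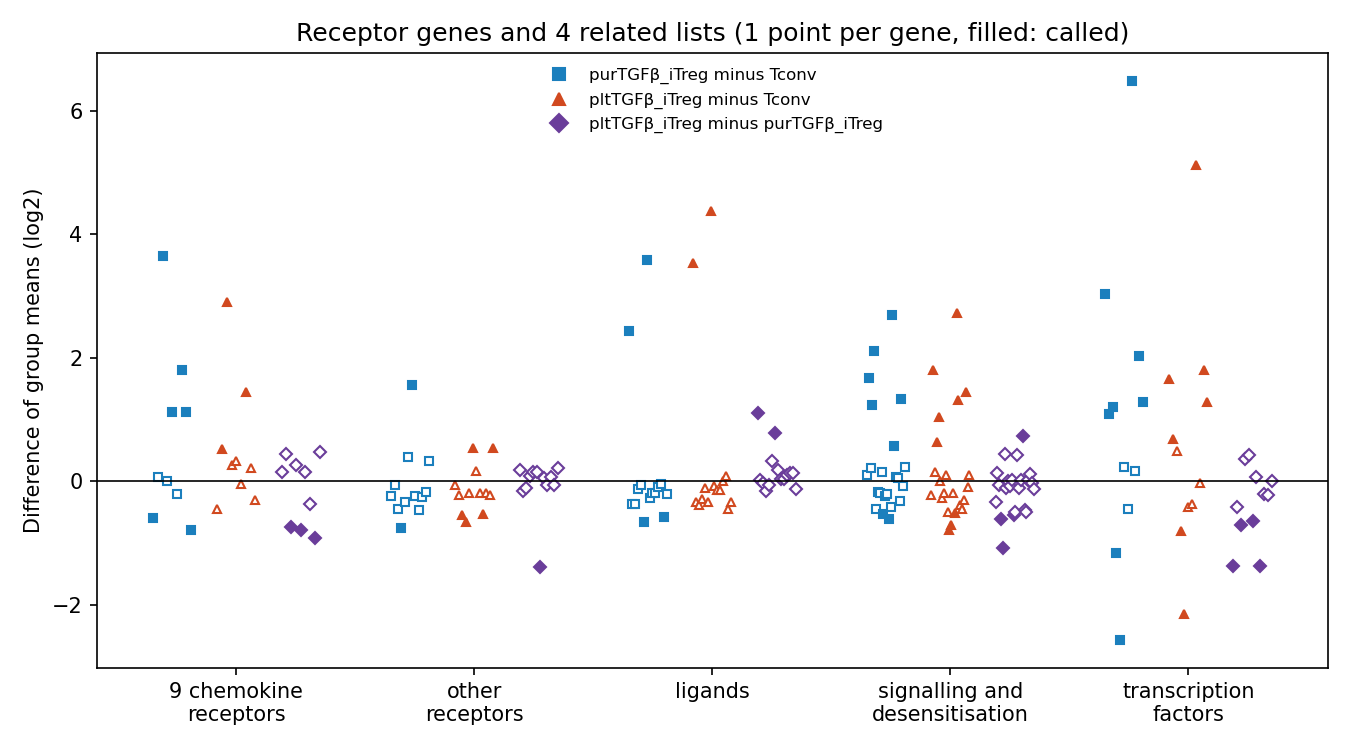
Differences of group means (log2, vertical axis), 1 point per gene and filled where called, for the 9 receptors and for other receptors, ligands, signalling genes and transcription factors. Maf has the largest rise, Ccl20 and Ccl1 are the ligands that stand above 0 in all 3 comparisons, and Cx3cr1 is the other receptor called between the iTreg groups.

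Upstream sequences are shown for the 4 receptors that rose most, because Ccr6 and Cxcr3 moved together in both iTreg groups and Ccr8 and Cxcr4 in purTGFβ_iTreg. Each is the 250 bases before an annotated RefSeq start (GRCm38.p6), read 5′ to 3′ on the strand of the gene: chr17:8235793-8236042 on the plus strand for Ccr6, which has a second listed start, chrX:101734148-101734397 on the minus strand for Cxcr3, chr9:120091883-120092132 on the plus strand for Ccr8 and chr1:128592300-128592549 on the minus strand for Cxcr4. Capitals mark matches to any of 8 short motifs, searched on both strands.
Ccr6: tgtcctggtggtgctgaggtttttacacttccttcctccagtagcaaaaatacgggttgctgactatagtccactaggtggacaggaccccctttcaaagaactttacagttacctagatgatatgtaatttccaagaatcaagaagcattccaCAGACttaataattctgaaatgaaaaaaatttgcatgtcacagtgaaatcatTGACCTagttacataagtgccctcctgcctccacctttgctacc
Cxcr3: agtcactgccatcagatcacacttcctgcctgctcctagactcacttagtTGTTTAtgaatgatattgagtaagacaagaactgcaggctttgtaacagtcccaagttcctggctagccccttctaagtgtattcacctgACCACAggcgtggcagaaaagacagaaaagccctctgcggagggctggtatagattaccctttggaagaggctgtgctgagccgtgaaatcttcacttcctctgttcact
Ccr8: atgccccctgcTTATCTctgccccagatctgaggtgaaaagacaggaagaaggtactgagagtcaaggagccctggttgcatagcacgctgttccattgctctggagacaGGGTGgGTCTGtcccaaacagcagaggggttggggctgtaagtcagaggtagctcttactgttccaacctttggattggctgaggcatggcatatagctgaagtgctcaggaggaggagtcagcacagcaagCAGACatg
Cxcr4: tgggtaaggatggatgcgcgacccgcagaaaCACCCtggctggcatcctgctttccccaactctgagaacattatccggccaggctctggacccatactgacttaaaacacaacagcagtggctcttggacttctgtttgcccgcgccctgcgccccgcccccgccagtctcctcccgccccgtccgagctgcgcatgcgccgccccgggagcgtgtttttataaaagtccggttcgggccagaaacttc
The share of all 32851 upstream windows of this length that hold each motif was 42.2% for the SMAD motif CAGAC, 14% for the RUNX motif TGTGGT, 14% for the ROR motif AGGTCA, 9.99% for the GATA motif AGATAA, 3.33% for the T-box motif GGTGTGA, 12% for the forkhead motif TAAACA, 52% for the KLF motif CACCC and 6.75% for the AP-1 motif TGANTCA. The AP-1 motif is its own reverse complement, and no matches in these windows overlap.

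The Ccr6 window held 1 SMAD match at -96 to -92 and 1 ROR match at -44 to -39, counted from the start. The Ccr8 window held 2 SMAD matches, at -134 to -130 and at -8 to -4, with 1 KLF and 1 GATA match. The Cxcr3 window held 1 RUNX match at -110 to -105 and 1 forkhead match, and none for T-box. The Cxcr4 window held 1 KLF match at -219 to -215, and it had 19 CpG dinucleotides and 61.2% GC, beside 1 to 3 CpG in the printed windows of Ccr6, Cxcr3 and Ccr8. The window of the second Ccr6 start, not printed, had 7 CpG, 1 SMAD match at -192 to -188 and 1 GATA match at -70 to -65. No motif was found in all 4 printed windows. These matches are letters in a window, not sites of binding.

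Genes with the most similar profile were sought for the 7 receptors called in any comparison, by the root mean square difference over the 9 arrays after centring each gene, among 16313 named genes. Ptprj (0.17), Igfbp4 (0.18) and Fbln2 (0.19) were closest to Ccr6. For Cxcr3 they were Rnf11 (0.06), Tbl1xr1 (0.09) and Treml2 (0.09). Calhm2 appeared for both Ccr8 (0.15, after Hepacam2 and Ramp1 at 0.13) and Cxcr4 (0.13, before Mavs at 0.14 and Rcan3 at 0.15). Calhm2 read 6.86 in Tconv, 7.91 in purTGFβ_iTreg and 7.0 in pltTGFβ_iTreg, the order of Ccr8 and Cxcr4. Rrp12 (0.10), Gpd2 (0.11) and Mettl1 (0.11) were closest to Cxcr5, Mtm1 (0.10), Cap1 (0.10) and Frrs1 (0.11) to Ccr4, and Miat (0.07), Gdf9 (0.08) and Padi3 (0.08) to Ccr2.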

How the data were processed

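The authors deposited log2 expression values from Affymetrix mouse arrays after RMA, run in Expression Console as the series' design text states. RMA subtracts background, quantile normalizes and summarises probes. The deposited values still differed in spread by group. Upper quartiles were 6.591 to 6.705 in Tconv and 6.86 to 6.952 in iTreg, and lower quartiles 3.31 to 3.363 and 3.187 to 3.252. After quantile normalization of these values, purTGFβ_iTreg minus Tconv was 0.90 for Ccr8 and 1.60 for Cxcr3, against 1.12 and 1.81 before. For Cxcr4 it was 1.18, against 1.13. They tested with ANOVA in Partek Genomics Suite 6.6 at 1.4-fold and a false discovery rate under 10%, per the same text. Of 45101 probe sets, 64 controls were left out. Names came from the platform annotation: 34945 probe sets had 1 symbol, 932 several and 9160 none. The _x_at probe sets stood for a gene only where it had no other.

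Groups were compared by contrasts of 1 limma 3.58.1 model (R 4.3.3) over 9 arrays, two-sided, with Benjamini-Hochberg adjustment over 45037 probe sets. The fit was tested on simulated data. An exact test of 3 against 3 arrays cannot go below p = 0.1. Plots used Python 3.11.15 and matplotlib 3.10.9.

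The members, lists and motifs were chosen with earlier results of these data known. All 9 receptors were named, with up to 4 called genes per list and comparison at the lowest adjusted p, all ligands, and the 3 genes nearest each called receptor. Some genes of the lists were not analysed here, and counts are over the measured ones. CD8 or NK, platelet and naive T cell markers were also read. By main probe sets, 0 of 7 T cell markers rose and 2 fell with purified TGFβ1, and 1 rose and 2 fell with platelet lysate. Of 5 CD8 or NK markers 2 and 1 fell against Tconv and 1 was higher with platelet lysate. Of 5 platelet markers 1 fell in each Tconv comparison. Of 4 naive or homing markers 2 and 3 rose, and 1 was higher and 1 lower with platelet lysate. Promoter sequences came from a RefSeq table that holds none for Ccr7 and Cxcr5 here.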

Additional observations from a re-analysis of the deposited data

How the results depend on the processing

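Each receptor's 3 differences were recomputed under 14 alternatives (13 for Ccr9), 375 values in all. Of these 363 kept direction where called and their side of the cutoff, 12 crossed it and 0 reversed. The 12 belonged to Ccr2, Ccr4 and Ccr8, and the cause was not tested. In purTGFβ_iTreg against Tconv the count of receptors lower, 2, became 1 when probe sets were averaged per gene and 0 under stricter limits (adjusted p under 0.05, log2 difference beyond 1); leaving out 1 array gave 1 to 2. In pltTGFβ_iTreg against Tconv the count lower, 0, became 1 after quantile normalization (Ccr2, -0.57) and 1 with no fold cutoff; leaving out 1 array gave 0 to 1, with Ccr2 at -0.51 without Tconv replicate 2 and -0.50 without replicate 3. Between the iTreg groups the count higher, 0, became 3 with no fold cutoff and 0 to 1 with an array left out, and the count lower, 3, became 0 under the stricter limits. Counts of the 4 related lists moved by over 1.5 times in 47 of 384 alternatives. No value could be had for Ccr9 without the dimmest 40% of probe sets, which removed it.

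Whether the replicate numbers pair the samples is unsettled, and the main fit did not use them. Deviations from the group means were correlated between arrays. Same-numbered arrays gave -0.123 to 0.085 between Tconv and either iTreg group, and differently numbered arrays -0.118 to 0.17. Between the iTreg groups same-numbered arrays gave 0.194, 0.262 and 0.092. Each lay above all differently numbered arrays there, which gave -0.243 to 0.048, so a shared culture or batch by number remains possible. With the replicate number as a block the counts were unchanged, 4 higher and 2 lower, 3 and 0, and 0 and 3. The limits are 3 arrays per group, no detection calls, 1 probe set for 7 of the 9 receptors, and the Tconv arrays' unsettled treatment and sex.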
